A study of Mus musculus with 6 samples.

Results

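*Rnls*, *Shcbp1l* and *Sdhaf4* are 3 of the 6986 genes named in a direct RNA sequencing survey of poly(A) tails in mouse male germ cells. They were picked because their mean poly(A) tails were shorter in round spermatids (RS) than in pachytene and diplotene spermatocytes (P/D spermatocytes), the opposite of the direction most transcripts took. The tail lengths given here are therefore a description of the choice, without a test. Read counts did not enter the choice beyond a minimum number of reads, and their comparison carries a test. The reads were assigned to 3 transcripts by gene name, 1 for each gene. A further *Rnls* transcript, listed without a name in the table of reads, was added through its GENCODE identifier.

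Most mRNAs end in a poly(A) tail, made by a polymerase that needs no template. The tail is bound by poly(A)-binding proteins, is trimmed by deadenylases, and influences how stable an mRNA is and how well it is translated. Male germ cells transcribe many mRNAs during meiosis and early spermiogenesis and store some of them for later use, and tail length changes during this period. *Rnls* encodes renalase, a flavoprotein that oxidises unusual isomers of NADH and NADPH and that was first described as an amine oxidase. *Shcbp1l* encodes a spindle-associated protein of the testis that binds the chaperone HSPA2 and is known for its part in keeping the meiotic spindle intact. *Sdhaf4* encodes a mitochondrial assembly factor that binds the flavin-carrying catalytic subunit of succinate dehydrogenase, the enzyme that serves both the citric acid cycle and the respiratory chain.

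The cells came from testes of adult wild-type C57BL/6J/B6 males that received no treatment, and were stained with Hoechst and PI. PI served to exclude dead cells. The cells were sorted by Hoechst fluorescence, which reads DNA content, together with light scatter. Each cell type was represented by 3 samples, and the mRNA of 3 mice was pooled in each. All P/D samples were barcoded into 1 sequencing library and all RS samples into another, so library and cell type cannot be told apart. The P/D gate enriched for these spermatocytes and also held other cells. Between 244004 and 474688 reads were deposited per sample. Of the marker genes of P/D spermatocytes, 9 of 10 had reads, all but *Mlh3*, and together they made up 0.452 to 0.487% of the reads of a P/D sample and 0.260 to 0.282% of those of an RS sample. All 10 markers of RS had reads, at 0.0424 to 0.0543% in P/D samples and 0.321 to 0.340% in RS samples. The 10 markers of elongating spermatids had 0.318 to 0.398% of the reads in P/D samples and 2.62 to 3.17% in RS samples. The study states that mRNAs of some of these, such as the protamines and *Smcp*, are transcribed in RS. The share of this list thus does not tell RS from elongating spermatids. Markers of spermatogonia (1 of 7 with reads, *Uchl1*), Sertoli cells (2 of 7, *Clu* and *Cldn11*) and Leydig cells (1 of 6, *Insl3*) had at most 7 reads in any sample, and the 6 markers of macrophages and blood had none.

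The 3′ ends of the transcripts are shown because the tail follows directly on them and because the signal for cleavage and polyadenylation lies there. The last 30 bases of each annotated transcript are given 5′ to 3′ on the transcript strand, with that signal (AATAAA or its common variant ATTAAA) in capitals.
Rnls: ttcagttctaAATAAAtaacagttactacc
Shcbp1l: taaattcaaagATTAAAatgtttaaatgct
Sdhaf4: taAATAAAgacctcttgaaatttttcttta
These lie in the 3′UTRs, at chr19:33137747-33137776 on the minus strand for *Rnls*, chr1:153452545-153452574 on the plus strand for *Shcbp1l* and chr1:23995939-23995968 on the minus strand for *Sdhaf4* (GRCm38). The signal began 20 bases from the end in *Rnls*, 19 in *Shcbp1l* and 28 in *Sdhaf4*. Searched on the transcript strand in the last 50 bases, AATAAA was found in 64.7% and ATTAAA in 16.9% of the 1804 transcripts that had a sequence and reached 20 reads in all 6 samples. The annotated end need not be the end that these cells use.

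The cytoplasmic polyadenylation elements TTTTAT and TTTTAAT, which CPEB proteins are known to bind, were searched on the same strand in the last 100 bases. *Shcbp1l* held 1 TTTTAT, beginning 84 bases from its end (chr1:153452479-153452508, plus strand, element in capitals).
Shcbp1l: tgttcgttcgtgTTTTATagttcaggaatg
TTTTAT was not among the last 100 bases of *Rnls* or *Sdhaf4*, and TTTTAAT was in none of the 3. Of the same 1804 transcripts, 9.98% held TTTTAT and 3.44% held TTTTAAT in this window.

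The *Rnls* transcript ENSMUST00000096114 spans chr19:33137747-33392265 on the minus strand in 7 exons, and is 1597 bases long with 900 coding bases and a 3′UTR of 378 bases, stop codon included. *Shcbp1l* (ENSMUST00000042373) spans chr1:153425162-153452574 on the plus strand in 10 exons, with 1917 of its 2092 bases coding and a 3′UTR of 113 bases. *Sdhaf4* (ENSMUST00000027338) spans chr1:23995939-24005656 on the minus strand in 3 exons, with 312 of its 683 bases coding and a 3′UTR of 315 bases. The transcripts had no length in common. Of the 1827 transcripts that reached 20 reads in all 6 samples, 43.0% were shorter than *Rnls*, 56.5% than *Shcbp1l* and 8.70% than *Sdhaf4*. The 3′UTR of *Shcbp1l* was at the short end, with 15.0% of the 1741 transcripts with an annotated 3′UTR below it, against 46.8% for *Rnls* and 41.9% for *Sdhaf4*.

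*Rnls* mRNAs carried long tails in P/D spermatocytes and much shorter ones in RS. The mean tail was 175, 161 and 162 nt in the P/D samples, from 119, 122 and 114 reads, and 106, 99.7 and 97.2 nt in the RS samples, from 30, 37 and 23 reads. The groups did not overlap, and the 3 samples of a group lay close together. The group means were 166 ± 7.88 nt and 101 ± 4.63 nt (SD, n = 3 each), a difference of -65.1 nt with a limma standard error of 6.62 nt. The medians lay further apart than the means, at 181, 165 and 163 nt in P/D samples and 96.3, 83.0 and 86.4 nt in RS samples. The longest tail of a single *Rnls* read was 342 nt among P/D samples and 244 nt among RS samples.

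Tails of single reads were divided at 30, 120 and 210 nt, so that the ~60-nt and the ~150-nt classes each had their own range. In P/D spermatocytes 24.5 ± 1.52% of *Rnls* reads had tails of 30 to 120 nt, 48.5 ± 2.33% had 120 to 210 nt and 26.2 ± 3.54% had 210 nt or more. In RS these shares were 69.0 ± 7.78%, 27.2 ± 8.93% and 2.91 ± 2.73%. The largest share of *Rnls* reads was thus in the ~150-nt class in P/D spermatocytes and in the ~60-nt class in RS. None of these 3 shares overlapped between the groups. Of all reads of a sample, 60.1 to 62.9% had 30 to 120 nt in P/D samples and 20.7 to 24.0% in RS samples. The shares with 120 to 210 nt were 28.5 to 30.3% and 66.4 to 68.3%. Non-overlap of class shares, and of the CPM given below, was not counted over other transcripts. Counted over all samples of a group, 265 of 355 P/D reads and 27 of 90 RS reads had at least 120 nt. Tails below 30 nt made up under 1% of *Rnls* reads on average in both cell types, at 0.839% and 0.901%.

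**Figure D1:**
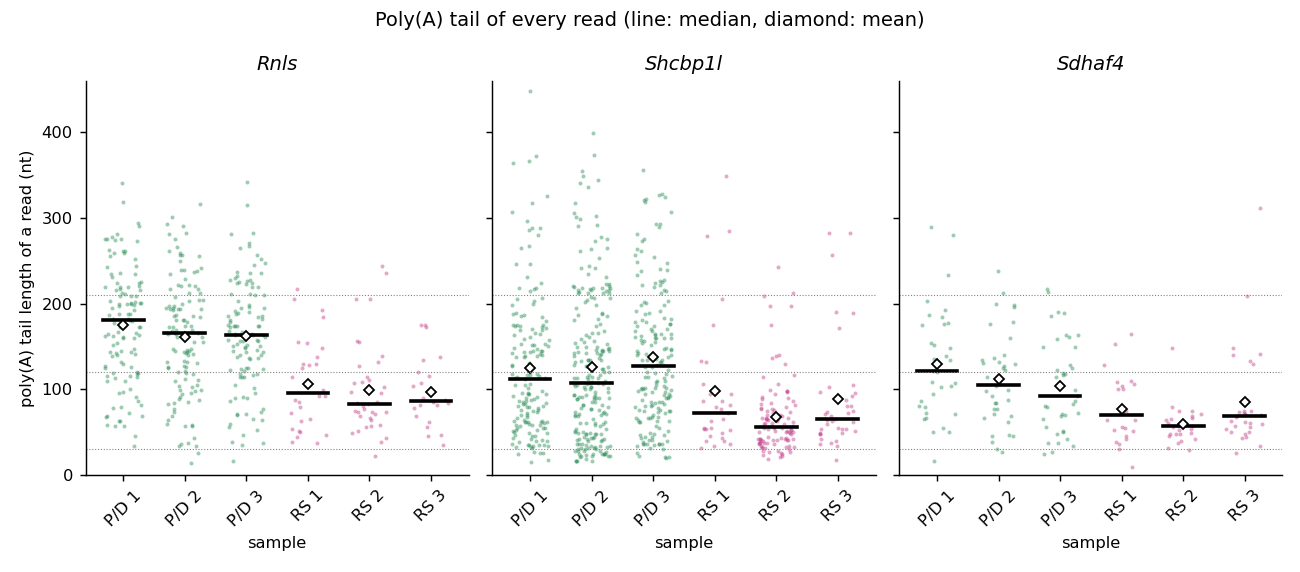
Poly(A) tail length of every read (vertical axis, nt) of *Rnls*, *Shcbp1l* and *Sdhaf4* in the 3 P/D samples (green) and the 3 RS samples (pink). Each point is a read, the black line the median and the diamond the mean of a sample, and dotted lines mark 30, 120 and 210 nt. In each gene the 3 RS means lie below the 3 P/D means, and the RS samples hold few reads above 120 nt.

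The other *Rnls* transcript, Rnls-202 (ENSMUST00000163093), has 5 exons, 1378 bases and a shorter reading frame of 546 bases, and shares its last 1039 bases with the main transcript. It had 5, 6 and 5 reads in P/D samples and 0, 3 and 1 reads in RS samples, too few for a test. Its share of all *Rnls* reads was 4.03, 4.69 and 4.20% in P/D samples, and 7.50 and 4.17% in RS samples 2 and 3, while 0 of 30 reads in RS sample 1 allow a share of up to 10%. The main transcript thus held more than 9 in every 10 *Rnls* reads in each sample. The 16 P/D reads of Rnls-202 had a median tail of 168 nt and 10 of them had at least 120 nt, while the 4 RS reads had a median of 57.3 nt and 1 of them had at least 120 nt. A read that ends within the shared bases cannot be assigned to one transcript or the other, and none of the reads of these 4 transcripts was listed on more than 1 contig.

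*Shcbp1l* mRNAs had tails of widely mixed length in P/D spermatocytes, and mostly tails of the ~60-nt class in RS. The mean tail was 126, 126 and 137 nt in P/D samples, from 167, 228 and 180 reads, and 98.6, 67.5 and 88.6 nt in RS samples, from 31, 107 and 39 reads. The groups did not overlap, although RS sample 2 stood below the other two. The group means were 129.5 ± 6.75 nt and 84.9 ± 15.9 nt (SD, n = 3 each), a difference of -44.7 nt with a limma standard error of 9.52 nt. Without RS sample 2 the difference was -36.0 nt. The median tail was 112, 108 and 127 nt in P/D samples and 72.3, 56.4 and 65.0 nt in RS samples.

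Read by read, *Shcbp1l* had the widest spread of the 3 genes in P/D spermatocytes, with an SD of 82.1 nt averaged over the samples, against 66.2 nt for *Rnls* and 57.7 nt for *Sdhaf4*. Its longest tail was 449 nt. Its P/D reads had tails of 30 to 120 nt in 47.5 ± 4.03% of cases, of 120 to 210 nt in 29.8 ± 3.85% and of 210 nt or more in 17.3 ± 3.57%. In RS the shares were 80.3 ± 2.49%, 9.36 ± 3.07% and 6.41 ± 4.06%. None of these 3 shares overlapped between the groups, again without a count over other transcripts. Over all samples 270 of 575 P/D reads and 23 of 177 RS reads had at least 120 nt. P/D sample 2 also had a number of very short tails, with 23 of its 228 reads below 30 nt, or 10.1% (95% Clopper-Pearson interval 6.50 to 14.8%), against 3.59% and 2.78% in P/D samples 1 and 3.

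*Sdhaf4* mRNAs had, on average, the shortest tails of the 3 genes in both cell types. The mean tail was 129.7, 112 and 104 nt in P/D samples, from 35, 38 and 39 reads, and 77.1, 59.1 and 85.7 nt in RS samples, from 24, 29 and 31 reads. The lowest P/D sample lay above the highest RS sample, and the spread within each group was larger than for *Rnls*. The group means were 115 ± 13.0 nt and 74.0 ± 13.6 nt (SD, n = 3 each), a difference of -41.4 nt with a limma standard error of 10.1 nt. The median tail was 122, 105 and 92.7 nt in P/D samples and 69.7, 57.7 and 68.9 nt in RS samples. Its reads had tails of 30 to 120 nt in 51.6 ± 6.77% of cases in P/D samples and 83.5 ± 9.46% in RS samples, and tails of 120 to 210 nt in 37.7 ± 6.24% and 11.8 ± 7.98%. Over all samples 49 of 112 P/D reads and 11 of 84 RS reads had at least 120 nt.

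The 3 genes stood among the transcripts with the largest decrease, from different starting points. For the same 1827 transcripts, the medians of the mean tails were 105.5 nt for P/D samples and 157 nt for RS samples, the median difference was +49.9 nt, and 6.02% of the differences were negative. *Rnls* had the lowest difference, *Shcbp1l* the 4th lowest and *Sdhaf4* the 5th lowest. Between *Rnls* and *Shcbp1l* came *Pttg1*, which encodes securin, at -46.8 nt and *Ccna1*, the meiotic cyclin A1, at -45.7 nt, and just after *Sdhaf4* came *Cdc20*, an activator of the anaphase-promoting complex, at -41.3 nt. All neighbouring differences from the 2nd to the 6th place were closer to each other than the standard errors of *Shcbp1l* and *Sdhaf4*, so their order is not resolved. In P/D spermatocytes *Rnls* had the 7th longest mean tail of the 1827 transcripts, *Shcbp1l* the 201st and *Sdhaf4* the 523rd. Counted from the shortest mean tail in RS, *Rnls* was the 76th, *Shcbp1l* the 25th and *Sdhaf4* the 12th. Every RS mean lay below every P/D mean in all 3 genes, which was so for 2.41% of the 1827 transcripts. In the limma fit 1.69% of 6990 transcripts had shorter tails in RS and 54.2% had longer ones, and since the genes were picked on this contrast nothing is read from their place in it.

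**Figure D2:**
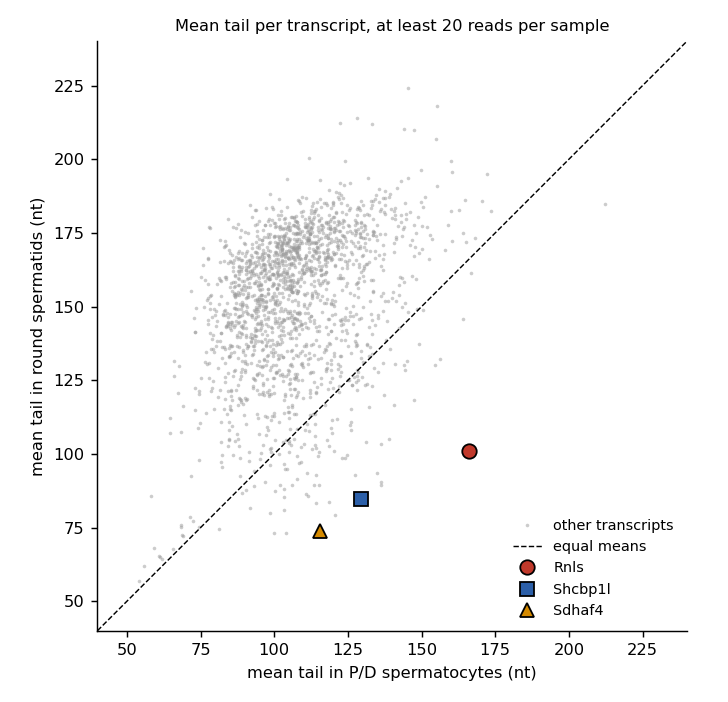
Mean tail length in P/D spermatocytes (horizontal axis, nt) against that in RS (vertical axis, nt) for the 1827 transcripts that reached 20 reads in all 6 samples, each point the average of 3 samples per cell type. The dashed line marks equal means, and the 3 chosen genes lie far below it, with *Rnls* to the right at 166 nt in P/D spermatocytes.

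The transcripts closest to each gene over the 6 samples were found by the root-mean-square difference of the sample means, among the same 1827. Those closest to *Rnls* were *Atxn7l3b* (19.4 nt), *Mif4gd* (20.3 nt) and *Pxt1* (22.3 nt), and all 3 had shorter P/D tails than *Rnls*, at 147, 139 and 136 nt. No transcript came within 19 nt of *Rnls*. For *Shcbp1l* the closest were the cell-cycle genes named above, *Pttg1* (6.83 nt), *Ccna1* (10.5 nt) and *Cdc20* (11.8 nt). For *Sdhaf4* they were *Chic2* (11.0 nt), *Srp14* (11.8 nt), which encodes a subunit of the signal recognition particle, and *Cct8* (12.5 nt), which encodes a subunit of the cytosolic chaperonin. Among themselves, *Shcbp1l* and *Sdhaf4* differed by 17.5 nt, *Rnls* and *Shcbp1l* by 30.3 nt and *Rnls* and *Sdhaf4* by 41.7 nt.

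Counts of the same reads gave the accumulation of each mRNA, given as CPM, the reads of the mRNA per 1000000 reads deposited for the sample. All 3 genes had fewer reads in RS, and all 3 passed the test across 6005 transcripts, of which 30.8% were lower in RS and 32.6% were higher. In these bulk samples, fewer cells that express a gene and less RNA per cell cannot be told apart. The study purified mRNA on oligo(dT) beads, which bind the tail. How far mRNAs with very short tails were missed in the counts was not tested. *Rnls* stood at 488, 399 and 420 CPM in P/D samples and at 94.7, 77.9 and 64.6 CPM in RS samples. Every RS sample was far below every P/D sample, a separation that was not counted over other transcripts. The log2 fold change of *Rnls* was -2.42 ± 0.18 (SE), or 5.34-fold lower in RS, with an edgeR quasi-likelihood adjusted p of 5.85e-15 (Benjamini-Hochberg).

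*Shcbp1l* stood at 684, 745 and 663 CPM in P/D samples and at 97.9, 225 and 109.5 CPM in RS samples. RS sample 2 held more than double the level of the other RS samples and still lay below all P/D samples. The log2 fold change was -2.16 ± 0.18 (SE), or 4.48-fold lower in RS, with an edgeR adjusted p of 5.06e-14, and -2.65 without RS sample 2. The same sample had the shortest *Shcbp1l* tails. The share of reads from P/D markers was 0.282, 0.260 and 0.262% in RS samples 1, 2 and 3, and its relation to these values was not tested.

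*Sdhaf4* showed the smallest difference, with 143, 124 and 144 CPM in P/D samples and 75.8, 61.1 and 87.1 CPM in RS samples. The groups did not overlap, which was not counted over other transcripts either. The log2 fold change was -0.84 ± 0.23 (SE), or 1.80-fold lower in RS, with an edgeR adjusted p of 0.00165. Counted from the lowest log2 fold change of the 6005 transcripts, *Rnls* was the 257th, *Shcbp1l* the 312th and *Sdhaf4* the 1291st. The P/D marker share was also lower in RS samples than in P/D samples. The share of elongating spermatid markers, some of them transcribed in RS, was higher. Their part in the tail and count differences was not tested.

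Split by tail length, the lower accumulation was not spread evenly over the tail classes. That longer tails fell more largely follows from choosing genes with shorter tails in RS, so the ratios are given without a test. Non-overlap of these CPM was not counted over other transcripts, and nothing is read from it. *Rnls* reads of 120 to 210 nt stood at 211 ± 16.5 CPM in P/D spermatocytes and 22.1 ± 11.0 CPM in RS, a ratio of 9.53, and reads of 30 to 120 nt at 106 ± 7.76 and 53.8 ± 5.26 CPM, a ratio of 1.97 (SD, n = 3 each). *Shcbp1l* showed 207 ± 15.0 against 12.6 ± 4.21 CPM in the longer of these classes, a ratio of 16.4, and 331 ± 27.3 against 116 ± 58.4 CPM in the shorter, a ratio of 2.84. The groups did not overlap in either class of either gene. *Sdhaf4* reads of 120 to 210 nt stood at 51.6 ± 8.90 CPM in P/D spermatocytes and 9.48 ± 7.37 CPM in RS, a ratio of 5.44, without overlap. That RS value rests on 3, 1 and 6 reads, and the ratio was 8.91 without RS sample 3. Its reads of 30 to 120 nt stood at 70.8 ± 12.2 and 61.5 ± 4.11 CPM, and here the samples of both cell types overlapped. None of the 3 genes had a higher CPM of reads with tails of 30 to 120 nt in RS than in P/D spermatocytes on average, although that class took a larger share of the reads of each.

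**Figure D3:**
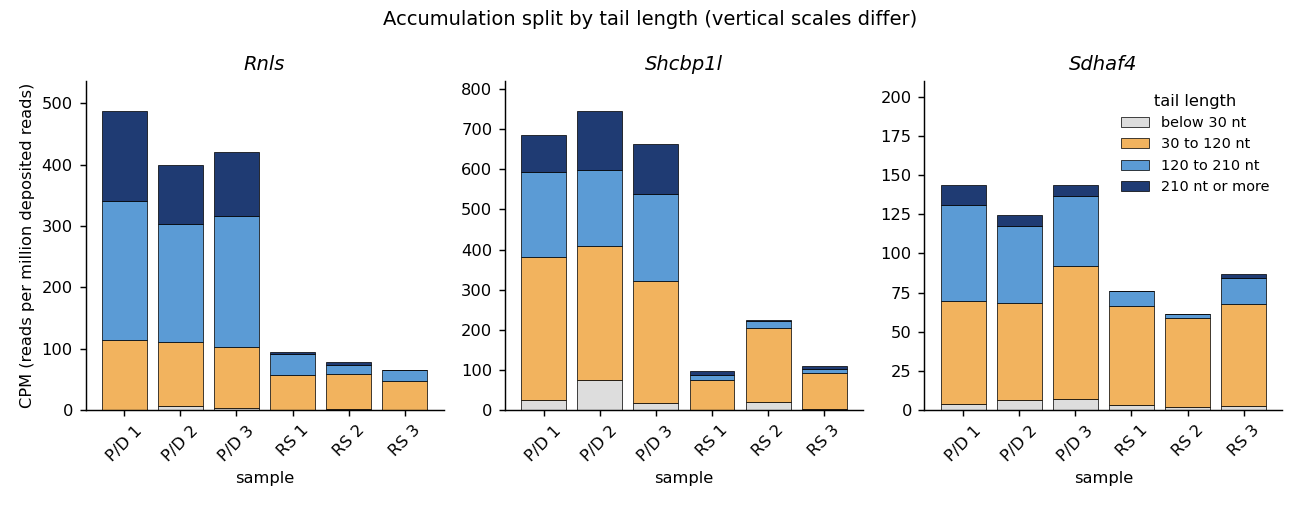
CPM of deposited reads (vertical axis, a separate linear scale for each gene) of *Rnls*, *Shcbp1l* and *Sdhaf4* in each of the 6 samples, stacked by tail length. In RS samples the blue parts (120 nt or more) are small in each gene, and the orange part (30 to 120 nt) of *Sdhaf4* has nearly the same height in both cell types, at 70.8 and 61.5 CPM on average.

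Genes of related function were taken from lists for each of the 3 genes, and their differences stand beside medians of +37.4 nt over all 6990 transcripts tested for tails and -0.03 on the log2 scale over all 6005 tested for counts. Of 7 other succinate dehydrogenase genes, 5 were measured, and by limma 0 of 5 had shorter tails in RS and 3 of 5 had longer ones, beside 1.69% and 54.2% of all transcripts tested. Tails were longer for the catalytic subunit *Sdha* by 28.7 nt (adjusted p = 0.0157), the iron-sulphur subunit *Sdhb* by 28.0 nt (adjusted p = 0.00480) and the iron-sulphur assembly factor *Sdhaf1* by 57.5 nt (adjusted p = 0.0447), the last from only 1, 2 and 5 reads in RS, since it met the read minimum through its P/D samples alone. The membrane anchors *Sdhc* (-3.96 nt) and *Sdhd* (+5.58 nt) did not pass. The median of the 5 was +28.0 nt, and +16.8 nt without *Sdhaf1*, against -41.4 nt for *Sdhaf4*. In accumulation *Sdha*, *Sdhb* and *Sdhc* were lower in RS by edgeR, beside 30.8% of all transcripts tested. *Sdhd* and *Sdhaf1* were also called lower. *Sdhaf1* again had few RS reads and *Sdhd* had 9, 7 and 12. Both met the read minimum of the count test through their P/D samples alone, so their calls are not set beside that share. The log2 fold changes were -0.46 for *Sdhb*, -0.71 for *Sdha*, -1.27 for *Sdhc*, -1.97 for *Sdhd* and -2.83 for *Sdhaf1*. The median of the 5 was -1.27, or -0.99 without *Sdhaf1*. Without *Sdhd* as well, the middle value was that of *Sdha*. *Sdhaf4*, at -0.84, lay between *Sdha* and *Sdhc*.

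The flavin-dependent amine oxidases are the enzymes to which renalase was first likened. Of 9 such genes, 2 were measured, each by a pair of transcripts. Both transcripts of *Il4i1*, an L-amino acid oxidase, had longer tails in RS by limma, by 66.7 nt (adjusted p = 0.000692) and 74.6 nt (adjusted p = 0.00427), in the direction of 54.2% of all transcripts tested. The tested transcript of *Kdm1a*, a histone demethylase, had a difference of -23.2 nt that did not pass (adjusted p = 0.0749). In accumulation the *Il4i1* transcripts were lower in RS by edgeR, at -1.02 and -1.14 on the log2 scale, as were 30.8% of all transcripts tested. The *Il4i1* transcript at -1.02 had 8, 14 and 12 RS reads and met the read minimum of the count test through its P/D samples. Its call therefore adds nothing to that comparison. The *Kdm1a* transcripts, at -0.11 and -0.24, did not pass.

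The list for *Shcbp1l* held its relative *Shcbp1*, its partner *Hspa2* and factors of the central spindle and the chromosomal passenger complex. All 10 had reads, but *Aurkb* and *Ect2* had too few for either test. Of 9 transcripts tested for tails, 1 was shorter in RS by limma, that of the passenger complex scaffold *Incenp* (-29.4 nt, adjusted p = 0.0239), 1 was longer, that of *Birc5* (+52.5 nt, adjusted p = 0.00119), and 7 did not pass, with a median of +12.8 nt over the 9. Of all transcripts tested 1.69% were shorter and 54.2% longer. The *Incenp* value rests on 3, 8 and 8 reads in P/D samples and 10, 15 and 8 in RS samples, and met the read minimum through RS alone. The *Hspa2* transcripts, at +14.2 and +12.8 nt, and *Shcbp1*, at +15.8 nt, were among those that did not pass. Of 7 tested for counts, *Cdca8* (-2.59), *Aurkc* (-1.54) and the main *Hspa2* transcript (-0.59 on the log2 scale) were lower in RS by edgeR. *Shcbp1* was higher (+2.22) and 3 did not pass, beside 30.8% lower and 32.6% higher of all transcripts tested. The median of the 7 was -0.59. *Cdca8* had 8, 17 and 9 RS reads and *Aurkc* 6, 11 and 11, and both met the read minimum of the count test through P/D samples. *Shcbp1* had 3, 6 and 8 P/D reads and met it through RS samples. The calls of *Cdca8*, *Aurkc* and *Shcbp1* therefore add nothing to a comparison with the shares of all transcripts. *Shcbp1l* averaged 698 ± 42.5 CPM in P/D spermatocytes and 144 ± 70.5 CPM in RS. *Shcbp1* averaged 20.5 ± 8.63 and 91.9 ± 28.2 CPM (SD, n = 3 each).

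**Figure D4:**
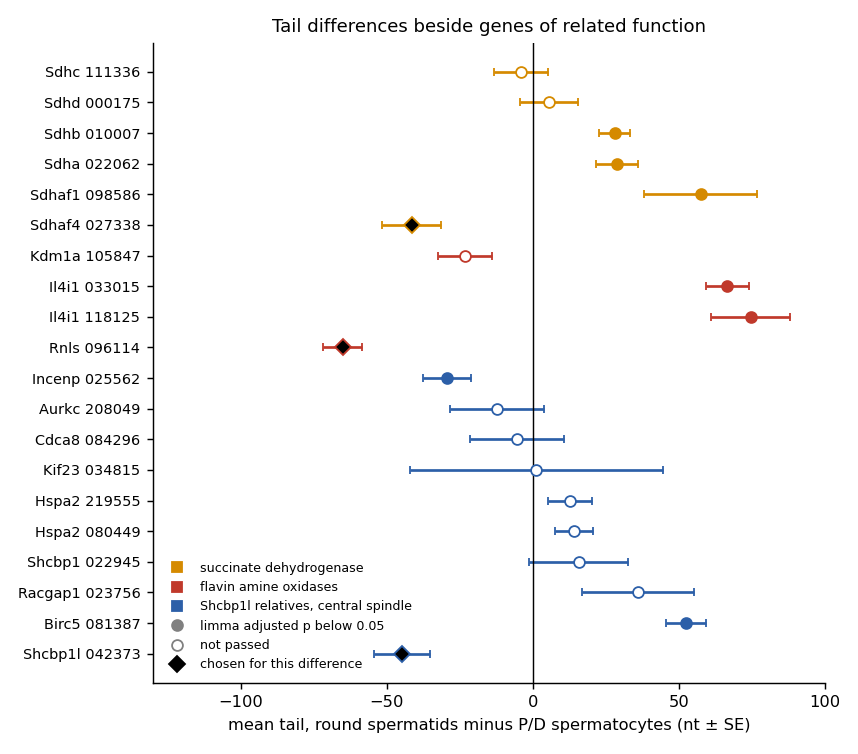
Difference in mean tail length, RS minus P/D spermatocytes (horizontal axis, nt, with the limma standard error as bars), of *Rnls*, *Shcbp1l* and *Sdhaf4* (black diamonds) and of the tested transcripts of genes of related function (circles, filled where the limma adjusted p passed), each named with the last digits of its identifier. The chosen genes are the leftmost of their lists, between -65.1 and -41.4 nt, and only *Incenp*, from 3, 8 and 8 P/D reads, has a filled circle left of 0 among the other transcripts.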

How the data were processed

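The authors basecalled direct RNA reads with Guppy, demultiplexed them with Deeplexicon, aligned them with minimap2 (2.20-r1061 in the submitters' processing notes) to GENCODE transcripts of the GRCm38 (mm10) genome, estimated tails with Nanopolish and kept reads of passing quality. They deposited raw counts of reads per contig and, for each read, its tail length in nt. The counts equalled the reads of each contig in the tail table.

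The genes and lists were chosen with earlier results of these data known. Positions and 3′ ends came from GENCODE vM21 and the GRCm38 genome. Mean tails per sample were compared with limma 3.58.1 for 6990 annotated transcripts with at least 10 reads in 2 samples of a cell type. That fit is the test for the listed genes and gives only the background and the standard errors for the 3 chosen genes. Counts were tested with edgeR 4.0.16 (TMM, filterByExpr, quasi-likelihood, Benjamini-Hochberg, threshold 0.05) in R 4.3.3, and both fits were tested on simulated data. DESeq2 1.42.0, other filters, other summaries of the tails, the replicate number as a block and leaving out samples were alternatives. The p-values measure the spread between pools of 3 mice. The study's reporting summary says that each animal gave all germ cell types, so P/D and RS pools may share mice, but not that equal replicate numbers mark the same pool. The class ratios with samples left out and the list without *Sdhaf1* were added after seeing the data. Intervals and limits cover counting error only. Python 3.11.15, pandas 2.3.3, scipy 1.17.1 and matplotlib 3.10.9 were used. Genes named are the 3 chosen, their neighbours in the order of differences, the 3 closest to each by sample means, the listed genes and the markers.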

Additional observations from a re-analysis of the deposited data

How the results depend on the processing

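The direction of every tail difference and the side of the threshold of every count difference of *Rnls*, *Shcbp1l* and *Sdhaf4* stayed as given under all alternatives run, and 179 recomputed values moved less than the spread between samples, kept their call or, for counts of transcripts, stayed within 1.5 times, while 11 moved further. With the median in place of the mean, the *Rnls* tail difference was -81.3 nt. With classes of 30 to 90 nt, the share was higher in RS by 37.5 points for *Rnls* and 37.4 points for *Shcbp1l*, against 44.5 and 32.8 points with 30 to 120 nt. With 120 to 180 nt it was -9.27 points for *Rnls* and -18.0 points for *Sdhaf4*, against -21.3 and -25.9 points with 120 to 210 nt. The limma count of transcripts with shorter tails, 118 of 6990 tested, was 45 of the 1827 with 20 reads in every sample, and 66 to 141 when 1 sample was left out, with 78 of 6738 without RS sample 1 and 66 of 6310 without RS sample 2. The edgeR count of transcripts higher in RS, 1958 of 6005 tested, was 3404 of 11467 without a filter on low counts. The numbers tested differ in these counts, and the cause of the other moves was not tested. Of the ratios of CPM by class, chosen after seeing the data, that of *Rnls* at 120 to 210 nt was 13.3 without RS sample 1 and that of *Shcbp1l* at 30 to 120 nt was 3.99 without RS sample 2.

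Leaving out 1 sample at a time gave tail differences of -67.6 to -60.5 nt for *Rnls*, -51.5 to -36.0 nt for *Shcbp1l* and -47.3 to -34.0 nt for *Sdhaf4*, and log2 fold changes of -2.52 to -2.27, -2.65 to -1.94 and -0.96 to -0.65. The adjusted p of *Sdhaf4* ranged from 0.000655 to 0.0372 over the edgeR and DESeq2 alternatives, and was highest with DESeq2. *Sdhaf4* rests on 24 to 39 reads a sample and RS samples of *Rnls* on 23 to 37, which limits the precision of their means.

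Samples of the same number in both cell types deviated together only weakly, with correlations over 1827 transcripts of -0.0106 to 0.0771 for tails and 0.0260 to 0.240 for log2 CPM, and -0.0816 to 0.0633 and -0.170 to 0.119 between other numbers. With the replicate number as a block, log2 fold changes were -2.41, -2.20 and -0.84 for *Rnls*, *Shcbp1l* and *Sdhaf4*, all still past the threshold, and 92 transcripts had shorter tails.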
